A study of Mus musculus with 45 samples.

Results

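Embryoid bodies (EBs) are aggregates that embryonic stem cells (ESCs) form in hanging drops and in which they begin to differentiate. The comparison described here is that of 16-day EBs labelled as Strip2 silenced (KD) with 16-day EBs that carry a scrambled control (SCR), and it takes 6 of the 45 arrays of the series, 3 for each line. Both lines derive from murine ESCs of strain 129, male, and wild-type (WT) EBs of the same age stand beside them as a second control with 3 arrays. The series holds each line as ESCs and as EBs of 4, 8, 12 and 16 days, and the 6 arrays were chosen by their labels alone. The labels number the arrays of a group as chips 1, 2 and 3. They do not say whether the RNA came from separate cultures, whether a line is a single clone, or how silencing was brought about. The spread between arrays of a group may therefore be technical. P-values and standard errors rest on this spread pooled over all 15 groups and 45 arrays, not on that of the 6 arrays alone. Every one of the 18193 genes with a probe set of its own was tested.

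The product of Strip2 belongs to STRIPAK, a family of assemblies where striatin scaffolds hold kinases next to the phosphatase PP2A. Stem cells in the naive state are held there by a circuit of transcription factors around Pou5f1, Sox2 and Nanog. When EBs form, this circuit is normally shut down, the cells pass through an epiblast-like stage, and mesoderm, endoderm and ectoderm derivatives follow, among them beating heart muscle, blood, vessels, connective tissue and an endoderm that secretes plasma proteins. An EB array reads all of these cells in a single RNA sample, so fewer cells of a type and less RNA per cell cannot be told apart.

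Strip2 itself was measured by 1 probe set. Its log2 signal was 3.01, 3.41 and 3.43 in the KD arrays, 4.54, 4.40 and 5.60 in the SCR arrays, and 3.0, 3.12 and 2.52 in the WT arrays. KD and SCR did not overlap, and KD was lower (log2 difference -1.56, SE 0.19, adjusted p 8.6e-09 in limma, n = 3 and 3). Against WT the KD arrays were not lower (0.40, SE 0.19, adjusted p 0.07). In ESCs Strip2 averaged 2.72 ± 0.06 in KD, 2.85 ± 0.02 in SCR and 2.7 ± 0.27 in WT (SD, n = 3 each). All lay under 3.82, where the dimmest 20% of genes ended by mean level over the 6 day 16 arrays of KD and SCR. The probe set therefore separates the KD label from SCR at day 16 but not from WT, and the names KD and SCR are used below as the submitters gave them. Of the 21 measured genes of the STRIPAK list, Strip2 included, none rose and 4 fell (median -0.31). The clearest of the other 3 was Tnik, a kinase of these complexes, at 4.5, 5.05 and 4.92 in KD against 7.0, 7.22 and 7.0 in SCR (log2 difference -2.25, SE 0.20, adjusted p 5.4e-12). Without the third SCR array the count was 2, and the striatins Strn, Strn3 and Strn4 lay at -0.15, 0.01 and -0.37.

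The 6 arrays were alike in overall range. Log2 values ran from 1.84 to 14.21, array medians from 5.06 to 5.09 in KD and from 5.15 to 5.18 in SCR, and the interquartile range was narrower in KD (3.63 to 3.77) than in SCR (3.90 to 3.95). Correlations between arrays of a group, across probe sets, ran from 0.9897 to 0.9947, and no pair of the 6 arrays shared more than 1.97% identical values. The values carry no detection calls. The dimmer 40% of the genes had mean levels up to 5.41, and a fold change that starts from such a level is given as measured, with no check that the dim value lay above background.

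The difference between the lines was broad. A gene is said below to have risen or fallen in KD where limma's adjusted p was under 0.05 and the change was at least 2-fold. Each gene is read from 1 probe set, that with the highest mean, and "not called" refers to that probe set. By the 2-fold rule 1890 genes (10.4%) rose and 2374 (13.0%) fell, together 23.4% of those tested. By adjusted p alone the counts were 7233 (39.8%) and 4884 (26.8%), together 66.6%. The median gene lay at 0.17, and the list medians below stand beside that value. Rises made up 44.3% of the 2-fold calls, 49.0% after subtraction of each array's median and 39.1% under cyclic loess, which moved the median gene to 0.25 and 0.05. By adjusted p alone the share of rises was 59.7%, and 65.8% and 50.5% under the same scalings. KD and SCR arrays did not overlap for 12731 genes (70.0%), so a lack of overlap by itself marks out little here. Changes of at least 4-fold were found for 528 genes upward and 1002 downward, of at least 16-fold for 101 and 221, and of at least 64-fold for 23 and 48.

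**Figure D1:**
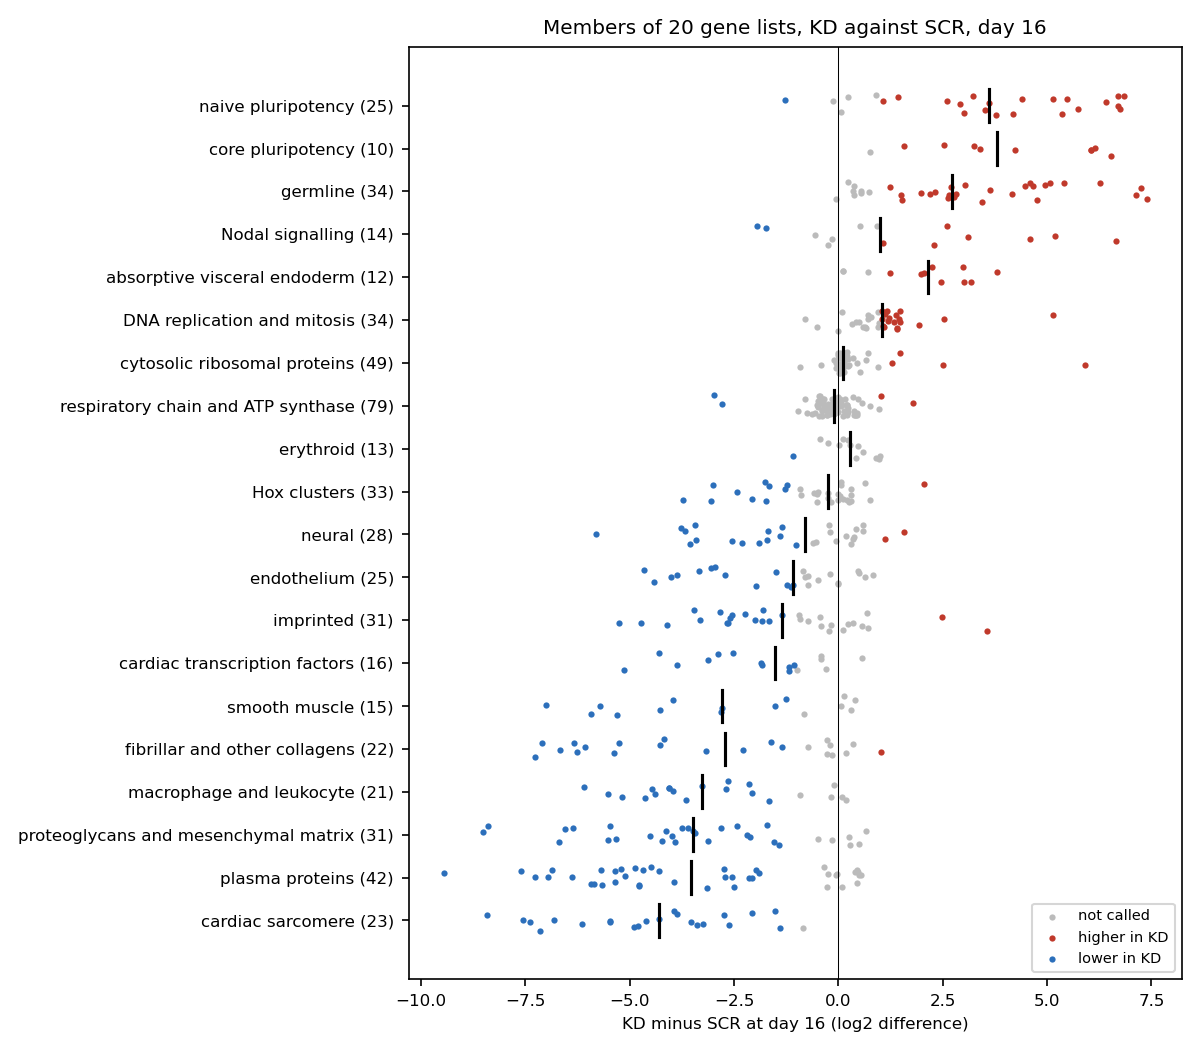
Difference between KD and SCR at day 16 (log2, x axis) for each measured member of 20 gene lists (rows). Each point is a gene, coloured red where it rose, blue where it fell and grey where neither was called; the black tick is the list's median. Naive and core pluripotency, germline and absorptive visceral endoderm genes lie to the right of 0, and plasma protein, heart muscle, matrix and macrophage genes to the left.

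The largest rises included germline genes (Mageb16, Morc1, Sycp3) and naive pluripotency genes (Fgf4, Zfp42, Nr0b1, Fbxo15). In order of size they were Mageb16, Morc1, Sycp3, Mcf2, Mymx, Fgf4, Zfp42, Nr0b1, Fbxo15, Tdgf1, Patl2, Dpys, Crxos, Dppa2 and Ooep, from 7.39 for Mageb16 to 6.43 for Ooep on the log2 scale. The largest falls were those of Alb, Cym, Dcn, Tnnt2, Lum, Serpina1b, Sparcl1, Hpx, Actc1, Myh6, Ambp, Col3a1, Pnliprp1, Myl2 and Col5a2, from -9.46 for Alb to -7.11 for Col5a2. Alb, Hpx and Ambp among them encode plasma proteins, Dcn, Lum, Col3a1 and Col5a2 connective tissue matrix, Tnnt2, Actc1, Myh6 and Myl2 heart muscle proteins, and Pnliprp1 a relative of pancreatic lipase.

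**Figure D2:**
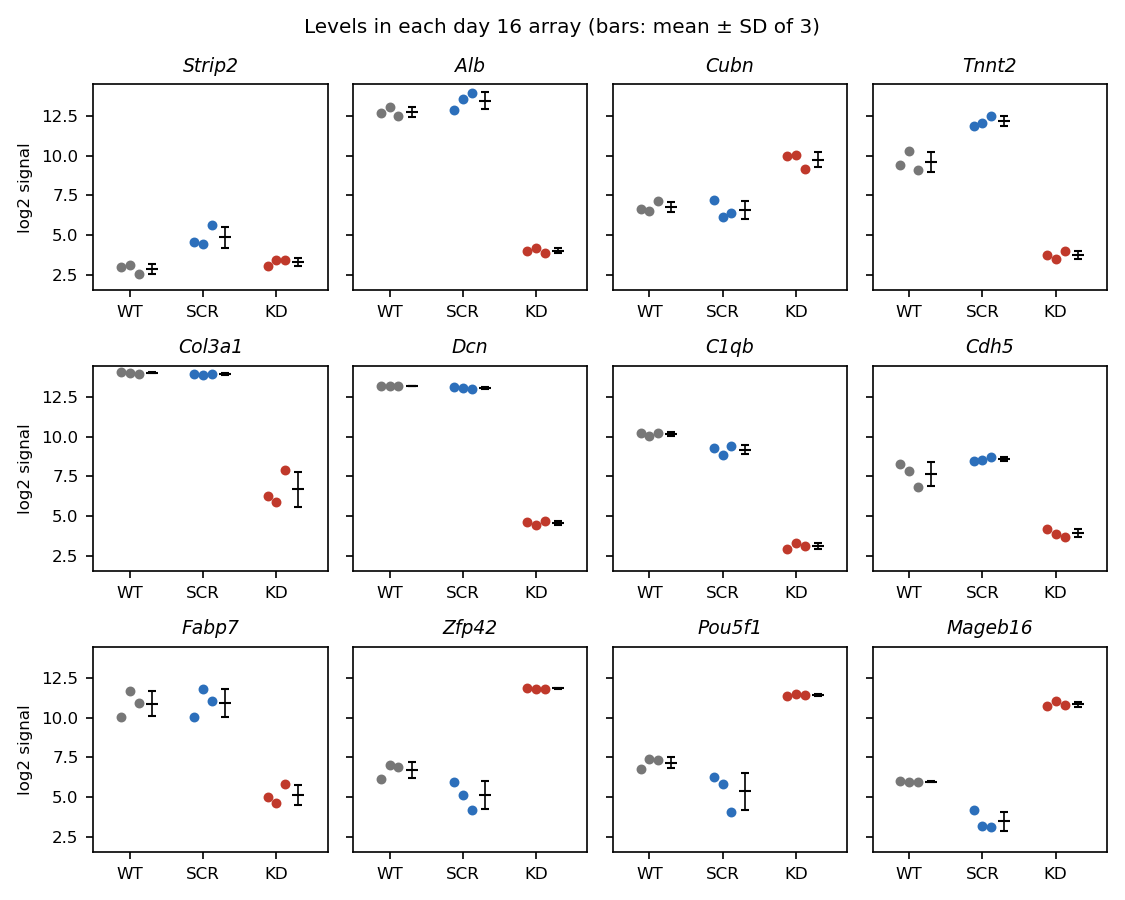
Log2 signal (y axis) of 12 genes in each 16-day array of WT, SCR and KD (x axis); points are arrays and the bars mean ± SD of 3. Zfp42, Pou5f1 and Mageb16 are highest in KD and in all 3 KD arrays above every control array, while Alb, Tnnt2, Dcn, C1qb and Cdh5 lie near the bottom of the range in KD only.

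Genes of the pluripotency circuit remained at high levels in KD EBs after 16 days. Pou5f1, the POU factor Oct4 at the centre of the circuit, read 11.36, 11.48 and 11.41 in KD against 6.24, 5.82 and 4.03 in SCR and 6.75, 7.41 and 7.34 in WT. The KD arrays were tight, the SCR arrays spread over a wide range with the third lowest, and the groups stood far apart (log2 difference 6.05, SE 0.37, adjusted p 1.2e-16; 66.4-fold). Nanog, the homeodomain factor of the naive state, read 11.00, 11.18 and 10.93 in KD and 5.82, 5.08 and 3.79 in SCR (6.14, SE 0.45, adjusted p 1.9e-14). Sox2, which neural progenitors also use, differed less, as the controls were also high: it read 11.90, 11.95 and 12.04 in KD against 9.20, 9.78 and 9.34 in SCR (2.52, SE 0.34, adjusted p 5.7e-08). Of the 10 core genes 9 rose (median 3.81), including Dppa2 (6.53), Dppa4 (6.04), Sall4 (4.24), Sall1 (3.38), Utf1 (3.26) and Rif1 (1.58). Trim28, the corepressor of retroelements, missed the 2-fold mark at 0.76 (SE 0.12, adjusted p 6.1e-07) and passed it on its other probe set at 1.03.

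Among 25 genes of naive pluripotency 20 rose and 1 fell, with a median of 3.60 against SCR and 3.24 against WT. Fgf4, a growth factor that the stem cells themselves secrete, stood at 10.49, 10.73 and 10.77 in KD and at 3.74, 3.94 and 3.78 in SCR (6.84, SE 0.20, adjusted p 1.7e-25). Zfp42 (Rex1), a marker of the naive state, was at 11.91, 11.83 and 11.84 against 5.97, 5.15 and 4.20 (6.75, SE 0.46, adjusted p 2.7e-15). The orphan nuclear receptors Nr0b1 and Esrrb rose by 6.71 and 5.75, and the germ cell regulators Prdm14 and Dppa3 by 4.19 and 2.6. Klf2 (3.22), Tbx3 (3.02) and Tfcp2l1 (3.52) were higher too, although both other probe sets of Tfcp2l1, at 0.20 and 0.25, were not called. Klf4 rose by 1.42. Tfcp2l1 and Klf4 are targets of the LIF and STAT3 input. Stat3 itself was the member that fell, from 8.90, 9.11 and 9.14 in SCR to 7.83, 7.56 and 7.95 in KD (-1.27, SE 0.15, adjusted p 3.4e-09), a call that was lost when the mean of its probe sets was used. Klf5, Nr5a2, Socs3 and Gbx2 were not called, at -0.14, 0.06, 0.22 and 0.89. The third SCR array was the lowest of its group for the pluripotency lists. The mean of the 25 naive genes was 6.17, 6.12 and 5.93 in SCR, 6.43, 6.67 and 6.69 in WT, and 9.61, 9.60 and 9.66 in KD.

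The KD EBs also carried genes of the next developmental step. Of 11 primed epiblast genes 5 rose and 1 fell (median 0.94). Fgf5, the growth factor of the egg-cylinder epiblast, was at 7.62, 7.47 and 7.57 in KD and at 4.68, 3.07 and 2.78 in SCR (4.04, SE 0.43, adjusted p 3.5e-10). Otx2, which directs entry into the primed state, read 10.64, 10.67 and 10.90 against 7.01, 8.19 and 6.95 (3.35, SE 0.44, adjusted p 3.1e-08). Zic5 (2.61), Pou3f1 (2.34) and Zic2 (1.32) rose as well, and Sox4, a factor of later progenitors, fell by 1.53 (-0.93, under 2-fold, with the mean of its probe sets). Fgf5 was not carried over from the stem cells. It averaged 3.42 ± 0.25 in KD ESCs (SD, n = 3) and 7.87 ± 0.18 in 4-day KD EBs, and in SCR it went from 7.58 ± 0.43 at day 4 to 3.59 ± 0.54 at day 8.

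Nodal signalling patterns the epiblast and sustains primed cells, and 7 of the 14 genes of its list rose while 2 fell (median 1.0). The ligand Nodal stood at 9.84, 9.82 and 9.97 in KD and 5.90, 5.07 and 4.87 in SCR (4.60, SE 0.24, adjusted p 2.2e-18). Its coreceptor Tdgf1 rose most (6.66, SE 0.51, adjusted p 6.8e-14), followed by the feedback antagonists Lefty2 (5.18) and Lefty1 (2.6), the DNA-binding partner Foxh1 (3.10) and the convertase Pcsk6 (2.28). The transducer Smad3 fell from 9.09, 9.29 and 9.03 to 7.27, 7.34 and 7.58 (-1.74, SE 0.15, adjusted p 3.7e-12; not called with the mean of its probe sets), and the receptor Acvr2a fell by 1.94. Smad2 and Smad4, at -0.16 and -0.24, were not called. In the primitive streak list, whose median was 0.47, 4 of 15 genes rose, Eomes (2.91), Lhx1 (2.10), Gsc (1.73) and Fgf8 (1.67), and Cdx2, a posterior factor, fell by 1.52 (-0.88 with the mean of its probe sets). Gsc rose only to 4.46, 3.82 and 4.04, in the dim range. The mesoderm factors Mesp1, Tbx6 and Msgn1 lay at 0.32, 0.36 and 0.63.

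Germline genes were higher in KD. They are genes that germ cells use for meiosis and for silencing transposons through piRNAs, and many are kept off in somatic cells by DNA methylation and by repressors that read short promoter elements. Of 34 measured members 26 rose and none fell, with a median of 2.73, and the medians were 1.87 against WT and -0.58 for SCR against WT. Promoters of 4 of them are printed because their genes rose most among members with such elements in the 150 bases shown. Genes on certain chromosomes were passed over for printing. They show the 150 bases before the RefSeq start on the gene's own strand (build GRCm38.p6). Capitals mark CACGTG, the E-box core, and GCGGGA, an element of the E2F type, which reads TCCCGC on the other strand.
Sycp3, chr10:88459437-88459586, plus strand: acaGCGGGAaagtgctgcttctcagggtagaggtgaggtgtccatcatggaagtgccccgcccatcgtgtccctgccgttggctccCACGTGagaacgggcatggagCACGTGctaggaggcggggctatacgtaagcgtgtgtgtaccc
Mael, chr1:166238745-166238894, minus strand: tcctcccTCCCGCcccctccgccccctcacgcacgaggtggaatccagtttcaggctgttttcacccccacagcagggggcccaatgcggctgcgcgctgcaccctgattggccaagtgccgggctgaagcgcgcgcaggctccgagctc
Tex19.1, chr11:121145993-121146142, plus strand: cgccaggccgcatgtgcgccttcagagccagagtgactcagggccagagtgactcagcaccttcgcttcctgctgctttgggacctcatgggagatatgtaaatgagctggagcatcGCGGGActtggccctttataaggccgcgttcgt
Ddx4, chr13:112652311-112652460, minus strand: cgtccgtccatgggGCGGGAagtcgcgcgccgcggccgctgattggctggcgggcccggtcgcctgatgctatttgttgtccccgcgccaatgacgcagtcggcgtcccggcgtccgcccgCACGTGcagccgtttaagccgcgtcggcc
Both strands were searched in the 250 bases before each start, and the motifs do not overlap in these promoters. CACGTG was found in 13 of 33 germline windows (39.4%, from 28 of the 34 genes) and in 7.38% of the 18109 windows of genes on the arrays. GCGGGA was found in 12 windows (36.4%) against 24.5%. A match is a run of letters, not a measured binding site.

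Sycp3, an axial element protein of meiotic chromosomes, read 11.36, 11.16 and 11.42 in KD, 4.76, 3.70 and 4.09 in SCR and 6.84, 5.94 and 5.53 in WT (log2 difference from SCR 7.13, SE 0.31, adjusted p 1.4e-20). It had also gone up from the KD ESCs, where it averaged 9.15 ± 0.31 (change 2.16, adjusted p 6e-07). Mael, which acts in the piRNA pathway, read 8.78, 8.80 and 9.26 in KD and 3.03, 2.47 and 2.55 in SCR (6.26, SE 0.15, adjusted p 1.1e-27). Ddx4, the germ cell helicase Vasa, was at 7.85, 7.72 and 7.56 against 2.90, 2.56 and 2.47 (5.07, SE 0.24, adjusted p 1.8e-19). Tex19.1, a germ cell and placental gene that restrains retrotransposons, rose by 5.40 (SE 0.21, adjusted p 9.5e-22). Mageb16, a MAGE family gene, read 10.72, 11.05 and 10.78 in KD, 4.16, 3.14 and 3.09 in SCR and 6.0, 5.93 and 5.97 in WT, the largest rise of all genes (7.39, SE 0.27, adjusted p 1.3e-22; 167-fold). Morc1 (7.26), which silences transposons in the male germline, followed it.

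Meiotic genes made up much of the rest. Hsf2bp (4.95), the cohesins Smc1b (4.66) and Stag3 (4.15), Hormad1 (3.63), Meioc (3.04), Syce1 (2.82) and the recombinase Dmc1 (2.63) rose, as did the piRNA genes Tdrd12 (4.58) and Piwil2 (3.43). The germ cell marker Dazl reached 6.34, 6.44 and 6.79 in KD against 4.37, 4.36 and 4.25 in SCR (2.20, SE 0.23, adjusted p 2.9e-10), but in WT it read 7.11, 5.42 and 5.75 and did not differ from KD beyond the test's threshold (0.43, adjusted p 0.11). The X-linked homeobox genes behaved likewise. Rhox6 was at 8.25, 8.06 and 7.67 in KD, 3.48, 3.43 and 2.78 in SCR and 9.31, 9.01 and 8.47 in WT, so its rise of 4.76 against SCR stood beside a value of -0.94 against WT. Rhox9 rose by 2.66 against SCR and fell by 1.62 against WT. The early germ cell genes Prdm1 and Kit lay at -0.06 and 0.24 and were not called. Only 1 of 7 genes of the 2-cell-like state rose, Usp17la (2.35).

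Chromatin regulators moved in both directions. In the DNA methylation list 5 of 15 rose and 1 fell, with a median of 0.20. Dnmt3l, the cofactor of the de novo methyltransferases, averaged 10.18 ± 0.16 in KD and 3.94 ± 0.04 in SCR, SD of 3 arrays (6.23, SE 0.19, adjusted p 5.5e-25 in limma). Dnmt3b followed (3.88), then the hydroxylase Tet1 (3.04), Uhrf1 (1.63) and Dnmt1 (1.25). Dnmt3a is uncertain. The probe set used lay at -0.34 (SE 0.30, adjusted p 0.31), and its 4 further probe sets were called in both directions, at -2.35, -1.74, -1.65 and 2.13. The methyl-CpG reader Mbd2 fell by 1.26. Among 31 Polycomb genes 11 rose and 4 fell (median 0.28). The rises were led by Cbx7, the chromodomain subunit of stem cells, at 10.20, 10.12 and 10.21 against 5.55, 5.09 and 5.05 (4.95, SE 0.16, adjusted p 2.1e-24), with L3mbtl2 (2.96), Phc1 (2.72), Pcgf6 (1.67), Jarid2 (1.88), Eed (1.62) and Suz12 (1.55). Bmi1 (-1.40), Phc2 (-1.74) and Phc3 (-1.27), all subunits of the first Polycomb complex, fell, and the catalytic subunit Ezh2 was not called (0.20). Of 21 genes tied to TRIM28 and heterochromatin 9 rose and none fell (median 0.71), among them Zfp57 (1.79), which guards imprints, Suv39h2 (1.74), Morc3 (1.35), and the HUSH subunits Tasor (1.13) and Mphosph8 (1.10).

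Secretory endoderm genes were far lower in KD. Plasma proteins are made by the visceral endoderm of the embryo and later by the liver, and 30 of 42 measured members fell in KD while none rose (median -3.54 against SCR, -2.55 against WT). The promoters of Alb, Fga and Fgb are shown because these genes were among the largest falls and hold GTTAAT, a core of the site of hepatocyte nuclear factor 1, in capitals (ATTAAC on the other strand).
Alb, chr5:90460720-90460869, plus strand: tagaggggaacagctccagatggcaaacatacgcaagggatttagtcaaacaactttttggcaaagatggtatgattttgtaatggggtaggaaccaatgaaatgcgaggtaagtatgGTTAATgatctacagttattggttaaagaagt
Fga, chr3:83026003-83026152, plus strand: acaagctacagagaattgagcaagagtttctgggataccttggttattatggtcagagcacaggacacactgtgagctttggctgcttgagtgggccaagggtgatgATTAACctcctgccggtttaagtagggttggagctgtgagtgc
Fgb, chr3:83049864-83050013, minus strand: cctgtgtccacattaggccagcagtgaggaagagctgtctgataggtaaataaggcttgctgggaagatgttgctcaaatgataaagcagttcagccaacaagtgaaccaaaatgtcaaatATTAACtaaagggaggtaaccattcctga
In the 250 bases before the start, searched on both strands, GTTAAT stood in 11 of 43 plasma protein windows (25.6%, 37 of the 42 genes) and in 4.89% of all windows of genes on the arrays.

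Albumin, the main protein of serum, gave the largest change of all genes. Alb read 4.01, 4.17 and 3.88 in KD, 12.91, 13.60 and 13.94 in SCR and 12.71, 13.08 and 12.51 in WT. All KD arrays were at the level of the stem cells (3.96 ± 0.09 in KD ESCs), and the difference from SCR was -9.46 (SE 0.23, adjusted p 6.1e-28; 706-fold). The 3 fibrinogen chains fell together, Fgg by 6.97, Fga by 6.87 and Fgb by 6.39 (SE 0.33, adjusted p 1.3e-18), with Fgb at 4.54, 5.41 and 4.49 in KD against 10.65, 10.85 and 12.12 in SCR. Hpx (-7.60) and Hp (-5.67), which bind free haem and haemoglobin, Ambp (-7.28), Kng1 (-5.92), Vtn (-5.69), the inter-alpha-trypsin inhibitor chains Itih3 (-5.86) and Itih2 (-5.36), antithrombin Serpinc1 (-5.20) and the apolipoprotein Apoa1 (-5.35) also fell. Serpina1b, an alpha-1-antitrypsin gene outside the list, fell by 7.73, and Cym, which encodes the milk-clotting protease chymosin, by 9.18, from 13.33, 13.71 and 12.89 to 4.32, 4.08 and 3.98.

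Afp and Ttr, which visceral endoderm makes early, were lower in KD as well. Afp was at 7.15, 8.89 and 7.07 in KD against 12.13, 12.14 and 12.27 in SCR (-4.48, SE 0.41, adjusted p 6.4e-12). Ttr, the thyroxine carrier, was still abundant at 11.69, 11.98 and 11.56 in KD against 13.47, 13.49 and 13.96 (-1.90, SE 0.39, adjusted p 7.2e-05). Apoe (0.48) and Mttp (-0.27) were not called. Ceruloplasmin, Cp, is uncertain: the probe set used lay at 0.09, and its 7 further probe sets were all called lower, from -5.24 to -1.11. Endoderm factors were divided, with 7 of 17 lower and 1 higher (median -0.53). Foxa1 fell from 10.21, 10.01 and 9.76 to 6.32, 6.43 and 6.51 (-3.57, SE 0.23, adjusted p 4.2e-16), and Prox1 (-2.28), Onecut1 (-2.04) and Cebpa (-1.70), factors of hepatic cells, fell too. Hnf4a fell by 1.56, a call that the mean of its probe sets did not give. Tcf21 (-6.29), also on this list, is better known from mesenchyme. Foxa2 (0.43), Gata4 (0.37) and Hhex (0.21) did not pass the rule, and Sox17, the 1 rise (1.18), was under 2-fold without the third KD array (0.99) or the second SCR array (0.91).

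Genes of the absorptive visceral endoderm went the other way. This extra-embryonic layer takes up maternal proteins through large endocytic receptors, and 9 of 12 of its genes rose in KD with none lower (median 2.14 against SCR, 1.77 against WT). Cubn, the receptor cubilin, lay between 9.19 and 10.06 in the 3 arrays of KD and read 7.21, 6.13 and 6.37 in SCR and 6.64, 6.52 and 7.12 in WT (3.18, SE 0.32, adjusted p 7.4e-11). Its partner Amn read 8.01, 7.66 and 7.92 against 4.96, 5.02 and 4.62 (3.0, SE 0.19, adjusted p 5.2e-16), and Lrp2, megalin, 9.19, 8.68 and 8.25 against 5.27, 5.17 and 4.25 (3.81, SE 0.28, adjusted p 3.1e-14). The endocytic adaptor Dab2 (2.04), Emb (2.99), Slc2a3 (2.45), Ctsh (2.24), Slc39a8 (1.99) and the folate receptor Folr1 (1.23) rose as well. Unlike the pluripotency genes, Cubn was low in KD stem cells, at 5.15 ± 0.27 (SD, n = 3), and reached 7.79 ± 0.26 by day 4 and 10.63 ± 0.42 by day 8. Embryonic laminin changed with them: Lama1, the chain of Reichert's membrane and of early basement membrane, read 9.76, 8.76 and 9.42 against 6.32, 5.68 and 5.50 (3.48, SE 0.28, adjusted p 2.1e-13). Lama2 (-3.38) and Lama4 (-3.44), chains of muscle and vessel, fell. In the basement membrane list as a whole 2 of 14 rose and 4 fell (median -0.34), and the collagens Col4a1 and Col4a2 lay at -0.15 and -0.27.

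Digestive enzyme genes were high in SCR and low in KD, but the controls differed among themselves. Ctrb1, the chymotrypsin precursor, was at 4.98, 5.41 and 4.72 in KD, 7.60, 11.25 and 10.41 in SCR and 4.72, 5.16 and 8.93 in WT, and Pnliprp1 at 3.46, 3.96 and 3.90, at 9.25, 12.06 and 11.49 and at 5.19, 5.51 and 9.08. The first SCR array was the lowest of its group for both, the third WT array the highest of its own. Against SCR the differences were -4.72 (SE 0.61, adjusted p 2.0e-08) for Ctrb1 and -7.16 for Pnliprp1, and against WT -1.23 and -2.82. Cpa1 (-4.89), Prss3 (-4.54), Cela1 (-3.83) and Clps (-3.57), pancreatic enzymes and a cofactor chosen after their values were seen, also had their lowest SCR value in the first array and their highest WT value in the third. Against WT they lay at -1.12, -0.30, -1.39 and -0.23.

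Heart muscle genes were far lower in KD than in SCR, and the controls also differed from each other. Of 23 genes of the cardiac sarcomere 22 fell in KD and none rose (median -4.29). The mean over the 23 genes was 5.35, 5.27 and 5.39 in KD, 9.27, 9.82 and 10.25 in SCR and 7.09, 7.65 and 6.65 in WT. SCR was thus above WT as well, with 21 of the 23 genes called higher (median 2.85). Against WT 12 genes fell in KD (median -1.66). The promoter of Actc1, cardiac actin, is shown because it holds a CArG box, the element read by serum response factor, in capitals.
Actc1, chr2:114052876-114053025, minus strand: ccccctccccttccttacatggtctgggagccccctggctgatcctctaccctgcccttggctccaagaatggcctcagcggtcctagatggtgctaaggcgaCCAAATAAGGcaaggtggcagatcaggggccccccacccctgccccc
CArG boxes stood in 7 of 30 windows of sarcomere genes (23.3%, 21 of the 23 genes), in 2 of 13 windows of smooth muscle genes (15.4%) and in 1.23% of the windows of all genes on the arrays.

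Tnnt2, cardiac troponin T, read 3.76, 3.49 and 3.96 in KD, 11.90, 12.09 and 12.52 in SCR and 9.40, 10.28 and 9.09 in WT. It was 346-fold lower than in SCR (-8.43, SE 0.36, adjusted p 6.3e-21) and lower than in WT by a log2 difference of -5.85. Actc1 read 4.87, 4.44 and 4.96 against 11.86, 12.36 and 12.73 (-7.56, SE 0.49, adjusted p 1e-15). The myosins Myh6 (-7.38), Myl2 (-7.14), Myl4 (-6.82) and Myl7 (-6.14), titin Ttn (-5.47) and the troponins Tnnc1 (-5.47), Tnni1 (-4.91) and Tnni3 (-4.80) fell as well. Against WT the same myosins were lower too, from -3.99 for Myl2 to -2.34 for Myl7. Other members were not called against WT, with values of -0.77 for Myh7, -0.11 for Myl3 and 0.82 for Actn2, beside -4.29, -2.74 and -1.53 against SCR.

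Cardiac transcription factors fell less, 11 of 16 with none higher (median -1.51 against SCR, -0.67 against WT). Hand2, a factor of heart and limb mesenchyme, read 4.16, 4.32 and 4.10 in KD against 9.67, 8.94 and 9.43 in SCR (-5.15, SE 0.19, adjusted p 1.2e-22), and Mef2c 4.26, 4.03 and 4.12 against 8.20, 8.36 and 8.76 (-4.30, SE 0.25, adjusted p 3.7e-17). Tbx2 (-3.86), Myocd (-3.12), Tbx20 (-2.89), Wt1 (-2.53), Smyd1 (-1.86) and Isl1 (-1.83) fell, while Nkx2-5 (-0.43) and Tbx5 (-0.99) were not called. In the list of calcium handling, channels and peptides 12 of 20 fell and 2 rose (median -1.51). Pln, phospholamban, went from 9.14, 8.78 and 9.02 in SCR to 3.74, 3.94 and 3.97 in KD (-5.10, SE 0.28, adjusted p 1.2e-17), with Smpx (-6.22), Sln (-4.49), the exchanger Slc8a1 (-4.04) and Trdn (-3.23) beside it. The rises were Fabp3 (3.90), a fatty acid binding protein, and Cox7a1 (1.79), a cytochrome oxidase subunit. Fabp3 was at 12.85, 12.74 and 12.77 in KD and had been at 12.15 ± 0.04 in KD stem cells. The SCR arrays were above WT for 14 of these 20 genes, and against WT 4 rose and 5 fell in KD. Mb, myoglobin, lay between the controls: 6.82, 7.29 and 6.67 in KD, 7.90, 8.37 and 8.78 in SCR and 5.31, 5.43 and 5.24 in WT.

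Connective tissue genes were far lower in KD than in either control. Of 22 collagens 14 fell and 1 rose (median -2.73 against SCR, -2.72 against WT), and of 31 proteoglycans and matrix genes 25 fell and none rose (-3.48 and -3.35). Col3a1, a fibrillar collagen, stood at 6.25, 5.88 and 7.92 in KD, 13.97, 13.92 and 13.99 in SCR and 14.07, 14.05 and 13.99 in WT (-7.28, SE 0.28, adjusted p 6.2e-22). The third KD array was the highest of its group and still far below every control. Col1a1 (-6.26), Col1a2 (-6.67), Col5a2 (-7.11), Col6a1 (-6.33), Col6a3 (-6.08) and Col4a5 (-5.37) fell. The rise, that of the cartilage collagen Col2a1 at 1.02, was under 2-fold without the third KD array (0.91), the first SCR array (0.90) or the third SCR array (0.92), and after cyclic loess (0.96).

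Decorin and lumican are small proteoglycans that bind collagen fibrils. Dcn read 4.59, 4.43 and 4.67 in KD, 13.13, 13.10 and 13.0 in SCR and 13.20, 13.20 and 13.19 in WT (-8.51, SE 0.17, adjusted p 4.3e-30). Lum read 3.28, 2.87 and 3.58, against 11.91, 11.44 and 11.59 and 12.31, 12.16 and 12.31 (-8.40, SE 0.18, adjusted p 4.2e-29). Postn (-6.70), Mgp (-6.55), Ogn (-6.37), Tnc (-5.53), Lox (-5.47) and Bgn (-4.23) fell, and Sparc (-0.48) was not called. Igfbp7 and Igfbp5 are uncertain: the probe sets used lay at 0.65 and 0.27, while further ones were called lower, at -5.31 and -1.72 for Igfbp7 and -5.85 for Igfbp5. Outside the lists Sparcl1, a secreted relative of Sparc, fell by 7.69 and Epha3, an ephrin receptor of mesenchyme, fell by 6.9, from 9.78, 9.91 and 9.78 to 2.90, 2.89 and 2.99.

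Of the mesenchymal regulators 19 of 27 fell and 1 rose (median -2.53). Vim, the intermediate filament vimentin, went from 12.27, 12.76 and 12.42 to 8.79, 7.88 and 8.96 (-3.94, SE 0.20, adjusted p 1.0e-18), Cdh11 from 11.86, 11.58 and 11.62 to 4.93, 4.72 and 6.43 (-6.33), and Snai2 from 10.89, 10.62 and 10.55 to 5.57, 5.80 and 6.24 (-4.82). Zeb2 (-5.72), Pdgfrb (-4.87), Foxf1 (-4.68), Prrx1 (-3.42), Twist2 (-2.68), Zeb1 (-2.56) and Twist1 (-1.75) fell. The 1 rise was Tbx3 (3.02), which is also a naive pluripotency gene, and Snai1 was not called (-0.09). In smooth muscle 10 of 15 fell and none rose (median -2.79): Myl9 (-7.02), Mylk (-5.94), Acta2 (-5.71), Actg2 (-5.30) and Tagln (-4.27) were the largest. Acta2 read 7.32, 6.06 and 7.85 in KD against 12.61, 12.90 and 12.84 in SCR (SE 0.32, adjusted p 1.1e-17). Myh11, the myosin of mature smooth muscle, is uncertain, since the probe set used lay at 0.39 and its other probe set at -4.27, called lower. Des lay at 0.06 and was not called. In skeletal muscle, with a list median of 0.17, 2 of 19 rose (10.5%) and 1 fell (5.26%), beside 10.4% and 13.0% of all genes. The master factors Myod1 (0.21), Myog (-0.32), Myf5 (-0.09) and Pax7 (0.50) were not called. The rises were Mymx (7.04), which makes myoblasts fuse, and Mylpf (3.44). Both were already high in stem cells: Mymx averaged 10.72 ± 0.15 and Mylpf 11.34 ± 0.12 in KD ESCs.

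Macrophage genes were lower in KD. Of 21 genes of macrophages and leukocytes 16 fell and none rose (median -3.28 against SCR, -4.04 against WT). C1qb, a complement subunit that tissue macrophages make, read 2.94, 3.29 and 3.09 in KD, 9.32, 8.87 and 9.39 in SCR and 10.24, 10.02 and 10.23 in WT (-6.09, SE 0.27, adjusted p 2.1e-20). Csf1r, the receptor that macrophages need to live, read 6.38, 5.82 and 6.6 against 10.37, 10.45 and 9.86 (-3.96, SE 0.25, adjusted p 2.7e-16). Tyrobp (-5.53), Lyz2 (-5.18), Ctss (-4.63), Cd53 (-4.46), C1qa (-4.40), Ptprc (-4.06), Adgre1 (-3.65) and Mrc1 (-3.28) fell. Cd68 (-0.11), Laptm5 (0.08), Itgam (-0.19) and Spi1 (0.18) were not called against SCR. Lyz1, a lysozyme gene nearly identical to Lyz2, fell by 7.06, and probe sets could take up RNA of both.

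Of 25 endothelial genes 13 fell and none rose, with a median of -1.09 against SCR but -0.17 against WT. Cdh5, VE-cadherin of endothelial junctions, read 4.17, 3.89 and 3.67 in KD, 8.46, 8.54 and 8.72 in SCR and 8.27, 7.82 and 6.81 in WT (-4.66, SE 0.26, adjusted p 1.3e-17). Emcn (-4.43), Icam2 (-4.01), Cd34 (-3.87), Aplnr (-3.34), Sox18 (-3.06), Ets1 (-2.95) and Kdr (-2.73) fell too. Pecam1 did not, at 6.5, 6.94 and 6.26 in KD and 6.28, 6.94 and 6.47 in SCR (0.00, SE 0.31, adjusted p 0.99); stem cells also carry this transcript, and KD was above WT by 1.09. Eng (0.46) and Vwf (0.49) were not called, and Flt1 (0.63) was not called on the probe set used but higher on 1 of its 3 others (1.52). Of 13 erythroid genes 1 fell, Tal1 (-1.10), and none rose (median 0.28), although 2 rose without the third KD array or without the second SCR array. The embryonic globin Hbb-bh1 was at 4.10, 4.55 and 4.07 in KD and 3.60, 3.91 and 3.80 in SCR (0.47, adjusted p 0.34), and at 4.35, 6.11 and 7.74 in WT. Hbb-y, another embryonic globin, lay at -0.44 on the probe set used and at -2.69 and -2.75 on both others, called lower.

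Of 28 neural genes 14 fell and 2 rose (median -0.80), or 1 rose without the second KD or the first SCR array. Fabp7, the fatty acid binding protein of radial glia, read 4.98, 4.61 and 5.80 in KD, 10.02, 11.79 and 11.05 in SCR and 10.08, 11.66 and 10.93 in WT (-5.82, SE 0.43, adjusted p 2.6e-14). The neuronal genes Map2 (-3.78), Ncam1 (-3.68), Dcx (-3.56), Gap43 (-3.43), Elavl4 (-2.56) and Snap25 (-2.30) fell. Dcx, a microtubule protein of migrating neurons, was at 3.35, 3.43 and 3.44 against 6.20, 7.97 and 6.74, with the second SCR array the highest, as it was for Fabp7 and Map2. The eye and forebrain factor Pax6 fell by 3.42 and was not called when its 5 probe sets were averaged. Stmn2 rose by 1.57 on the probe set used, a call lost in the same way. Sox1 (0.42), Neurod1 (-0.60) and Olig2 (-0.21) were not called.

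Hox genes, which give cells their position along the body axis, fell in 10 of 33 cases and rose in 1 (median -0.26). The falls were led by Hoxb3, from 8.23, 7.67 and 7.89 to 3.99, 4.24 and 4.37 (-3.73, SE 0.31, adjusted p 7e-13), Hoxb2 (-3.06), Hoxd8 (-3.0), Hoxd10 (-2.44) and Hoxa10 (-2.06). Hoxc13 rose from 3.87, 3.93 and 3.80 to 5.98, 6.10 and 5.71 (2.06, SE 0.22, adjusted p 4.2e-10). Of 31 imprinted genes 16 fell and 2 rose (median -1.35). Igf2, the fetal growth factor, read 10.44, 10.58 and 10.29 in KD against 13.75, 13.79 and 13.72 in SCR (-3.32, SE 0.18, adjusted p 4.5e-18), and Dlk1 5.42, 5.84 and 5.69 against 10.88, 11.09 and 10.80 (-5.27, SE 0.22, adjusted p 2.7e-21). Asb4 (-4.72), Ndn (-3.47), Mest (-2.83), Cdkn1c (-2.67), Peg3 (-2.25) and Igf2r (-1.81) fell, members expressed from either parental allele. Grb10 (3.55), a brake on insulin signalling, and Phlda2 (2.47), a placental growth regulator, rose, although against WT Phlda2 lay at 0.53.

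Signalling pathways changed member by member. In the BMP list 11 of 26 fell and 1 rose (median -0.61). Bmp5 fell from 8.21, 8.10 and 8.25 to 4.19, 4.36 and 4.33 (-3.89, SE 0.18, adjusted p 4.1e-20), and the target genes Id2 (-2.30) and Id3 (-1.77), the receptor Bmpr2 (-2.13), the transducer Smad5 (-2.05) and the antagonists Grem1 (-2.45) and Bambi (-2.04) fell too. Bmp4 (-0.52) and Smad1 (-0.71) did not pass. Among 31 Wnt ligands and antagonists 9 fell and 1 rose, with a median of 0.23: Dkk2 (-4.47), Nkd1 (-3.02), Wnt5a (-3.0), Wif1 (-2.99) and Sfrp2 (-2.12) were lower, while Dkk1, an inhibitor of Wnt receptors, was at 7.43, 7.40 and 7.15 against 5.67, 4.78 and 3.83 (2.57, SE 0.29, adjusted p 1.6e-09). The other probe sets of Nkd1, at -0.33, 0.26 and 0.44, were not called. Of the 16 Wnt ligands measured Wnt4 (-1.87) and Wnt5a were the ones that fell.

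In the FGF list 4 of 29 rose (13.8%) and 5 fell (17.2%), beside 10.4% and 13.0% of all genes (median 0.18). Both shares lay near those of all genes. The rises within this list were Etv5 (3.47), Dusp4 (1.44), Spry4 (1.13) and Etv4 (1.11). The ligands Fgf4, Fgf5 and Fgf8 also rose, but are counted above on the naive, primed epiblast and primitive streak lists. Etv5 stood at 11.02, 10.99 and 10.98 in KD and 7.92, 7.60 and 7.06 in SCR (SE 0.18, adjusted p 1.7e-18). The receptors Fgfr2 (-2.49) and Fgfr3 (-1.56) and Fgf13 (-2.23) fell. The other probe sets of Spry4 (0.99, 0.91 and 0.87), Etv4 (0.72), Fgfr3 (0.05) and Fgf13 (0.49) were not called. In the Notch list 7 of 18 fell and 1 rose (median -0.47), led by the ligand Jag1, from 9.96, 9.55 and 9.46 to 7.05, 6.54 and 7.15 (-2.74, SE 0.24, adjusted p 2.7e-12), with Notch4 (-1.85), Heyl (-1.44), Nrarp (-1.29) and Notch1 (-1.27). No other probe set of Notch4 (0.34 and 0.18), Heyl (-0.93 and -0.57), Nrarp (-0.43) or Notch1 (-0.39) was called. Against WT 1 Notch gene fell and 1 rose.

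Genes of DNA replication and mitosis were higher in KD, 18 of 34 with none lower (median 1.05). Mybl2, a cell cycle factor that is also on the naive list, read 9.84, 9.88 and 9.80 against 4.64, 5.36 and 4.06 (5.15, SE 0.23, adjusted p 3.5e-20). The other rises were of moderate size, among them Mcm10 (2.53), Bub1 (1.93), Mcm3 (1.48), Chek1 (1.46), Cdc6 (1.40) and Ccna2 (1.18). The proliferation marker Mki67 lay at -0.51 (SE 0.11, adjusted p 7.1e-05), and it, Pcna (0.32) and Cdk1 (0.50) were not called. In the list of G1 cyclins and inhibitors 7 of 18 fell and 1 rose (median -0.88): Ccnd2 went from 12.02, 11.96 and 11.70 to 8.48, 7.60 and 9.18 (-3.47, SE 0.30, adjusted p 2.0e-12), and Cdkn1c (-2.67), Cdk6 (-1.95), Cdkn2c (-1.65) and Ccnd1 (-1.56) fell. Of 10 Myc family genes 1 rose, right at the 2-fold mark (1.0), and 2 fell, the antagonists Mxd4 (-3.12) and Mxd1 (-1.21). The list median was 0.50, and Myc (0.59) was not called. Mycn lay at 0.75 on the probe set used and at 0.52 and 3.68 on the others, the last called higher. The RNA-binding genes Lin28a (4.68) and Trim71 (3.46), which act in the let-7 microRNA pathway of stem cells, rose, whereas Hmga2, a let-7 target, fell by 1.90.

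Glycolysis genes rose in 8 of 27 cases and fell in 2. Pfkp, the platelet-type phosphofructokinase, read 10.28, 10.28 and 10.66 in KD against 7.07, 7.90 and 7.81 in SCR (2.81, SE 0.22, adjusted p 1.2e-13), and the kinase Pdk1 (2.10), Ldhb (1.75), Pkm (1.53) and the glucose transporter Slc2a1 (1.52) rose. Vegfa fell by 1.77, a call lost with the mean of its probe sets. The median was 0.50 against SCR and 1.24 against WT. The 79 genes of the respiratory chain and ATP synthase had a median of -0.11, with 2 rises and 2 falls, and 1 rise without the second KD or the third SCR array. The falls were the muscle isoforms Cox6a2 (-2.99) and Cox8b (-2.78), and the SCR arrays were above WT for both, by 2.71 and 2.81. Of 49 cytosolic ribosomal protein genes 4 rose (8.16%, beside 10.4% of all genes) and none fell. The list median of 0.10 became -0.07 after cyclic loess. The largest rise was that of Rpl39l, a testis-type paralogue, at 10.86, 10.85 and 11.01 against 5.56, 4.73 and 4.69 (5.91, SE 0.24, adjusted p 2.1e-21), followed by Rps4l (2.51).

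The remaining lists gave mixed counts. Of 28 interferon genes 6 rose and 2 fell (1 without the second KD array), led by Bst2 (3.73), which tethers budding virus to the cell, and Oas1a (2.42). Here the controls differed: the list median was 0.03 against SCR (-0.04 under cyclic loess) and -0.65 against WT, and Ifit1 read 4.20, 3.61 and 4.32 in KD, 4.48, 3.59 and 4.11 in SCR but 6.27, 6.70 and 7.28 in WT. Among 6 metallothionein and betaine methyltransferase genes 3 rose, with Mt4 at 7.70, 8.20 and 7.39 against 4.02, 3.50 and 4.31 (3.82, SE 0.25, adjusted p 6.6e-16). Of 18 p53 targets, with a median of 0.0, 2 rose, Pmaip1 (2.33) and Gadd45a (1.36), and 3 fell, Plk2 (-1.98), Perp (-1.67) and Fas (-1.18), while Cdkn1a lay at -0.92, and at -1.02, called lower, on its other probe set. The shares of p53 targets, 11.1% up and 16.7% down, lay near the 10.4% and 13.0% of all genes. The other probe set of Plk2 (0.01) was not called. Of 25 epithelial genes, with a median of -0.26, 6 fell (24.0%, beside 13.0% of all genes) and 3 rose (12.0%, beside 10.4%). Without the third SCR array 1 rose. The stratified epithelium genes Krt14 (-2.18) and Trp63 (-2.54) and the gut keratins Krt20 (-3.05) and Krt19 (-2.30) fell, the factor Grhl2 rose (2.63), and Cdh1 (0.18), Epcam (-0.26), Krt8 (0.03) and Krt18 (0.48), which stem cells share, were not called. The other probe sets of Trp63 (0.18, 0.20 and -0.04) and Grhl2 (0.62, 0.53 and 0.94) were not called. Krt14 had a further probe set called lower (-1.40) and another not called (0.23).

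Of 14 trophoblast genes 2 rose in KD against SCR (median 0.27), Tfap2c (3.39) and Ascl2 (2.24), and 2 fell, Elf5 (-2.57) and Pparg (-1.13). Each count is 14.3% of the list, near the 10.4% of all genes that rose and the 13.0% that fell. The other probe set of Elf5 (0.25) was not called. Against WT 1 of the 14 rose and 6 fell in KD, and 5 were lower in SCR than in WT. Tpbpa, a spongiotrophoblast gene, was at 3.71, 3.89 and 4.05 in KD and 3.42, 3.12 and 3.40 in SCR, but at 9.31, 9.61 and 8.48 in WT. The lines stood in the same order for Prl2a1, a placental prolactin gene, at 4.84, 4.27 and 4.72, at 3.28, 3.10 and 3.46 and at 8.35, 8.53 and 7.56.

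WT EBs of the same day served as a second control, and the KD arrays enter both comparisons. KD against WT gave 1564 rises (8.60%) and 2142 falls (11.8%), together 20.4%, whereas SCR against WT gave 275 (1.51%) and 243 (1.34%), together 2.85%. Among the genes called against SCR, 1449 rises (7.96%) and 1912 falls (10.5%) were also called against WT with all 3 KD arrays beyond all 6 control arrays. The largest of these by the smaller of both differences included, among the rises, Mcf2, Mymx, Fgf4, Nr0b1, Dnmt3l and Mael, and among the falls Alb, Cym, Dcn, Lum, Col3a1, Lyz1, Epha3 and Postn. Mcf2 read 9.84, 9.95 and 9.77 in KD, 2.78, 3.07 and 2.49 in SCR and 3.16, 3.74 and 3.99 in WT (7.07, SE 0.28, adjusted p 1.2e-21). Only 13 genes (0.0715%) were called in opposite directions, 12 higher than SCR and lower than WT (0.0660%) and 1, Mb, the reverse (0.00550%). The 12 include Rhox9, the hormone gene Sct, the interferon-induced protease Usp18, the placental serpins Serpinb9g and Serpinb9c, and Prl2a1. Sct was at 7.15, 7.06 and 7.09 in KD, 5.78, 5.65 and 5.29 in SCR and 10.11, 9.90 and 9.28 in WT. Mbnl3, another of the 12, is uncertain, since it rose by 1.47 on the probe set used while its other probe sets lay at -1.96 and -1.63.

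Each line was also set against its own stem cells. In SCR 2810 genes (15.4%) had risen and 2007 (11.0%) fallen by day 16, together 26.5%, and in KD 1097 (6.03%) and 449 (2.47%), together 8.50%. Of the 1890 genes higher in KD than in SCR, 1205 had fallen in SCR from its ESCs, and in KD 1529 were not called against its ESCs, 223 were up and 138 down. Their median change from ESCs was -1.33 in SCR and -0.03 in KD. Of the 2374 genes lower in KD, 1984 had risen in SCR, and 1947 were not called in KD (medians 1.90 and 0.14). These comparisons share arrays with that of KD and SCR, so the counts describe the same values and add no independent evidence. Pou5f1 shows the usual course. It averaged 12.01 ± 0.11 in KD ESCs, 11.62 ± 0.09 at day 4, 11.47 ± 0.15 at day 8, 11.34 ± 0.15 at day 12 and 11.42 ± 0.06 at day 16, while SCR went from 12.13 ± 0.15 through 7.77 ± 0.21, 4.65 ± 0.56 and 5.67 ± 0.69 to 5.36 ± 1.17 (SD, n = 3 each).

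**Figure D3:**
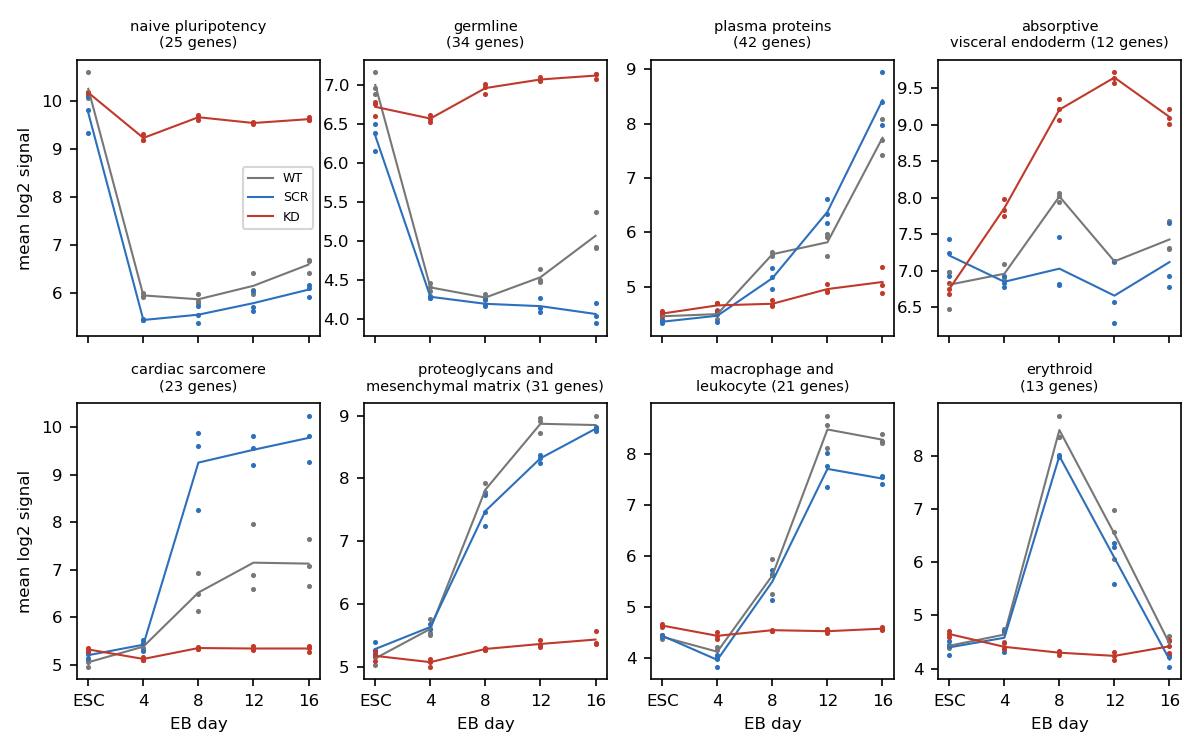
Mean log2 signal (y axis) of the members of 8 gene lists in WT, SCR and KD over 5 stages from ESCs to 16-day EBs (x axis); points are arrays and lines join the group means. Naive pluripotency and germline means stay near their ESC level in KD and drop by day 4 in both controls; plasma protein, cardiac, matrix and macrophage means rise in the controls and stay flat in KD; absorptive visceral endoderm rises in KD, and erythroid genes rise and fall again in the controls.

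Day 16 was then compared with day 12, the stage before it. At day 12 KD differed from SCR in 1854 genes upward (10.2%) and 2059 downward (11.3%), together 21.5%. The test of whether the difference itself changed between the days called 672 genes (3.69%), 90 with a higher value at day 16 (0.495%) and 582 with a lower one (3.20%). Plasma proteins account for 29 of the 582, and their list median went from -0.92 at day 12 to -3.54 at day 16. Alb moved from -6.93 to -9.46 (change -2.54, SE 0.32, adjusted p 4.7e-07) as SCR rose from 10.71 ± 0.31 to 13.48 ± 0.52 while KD stayed at 3.78 and 4.02 on average. Hp, haptoglobin, was at 3.98 ± 0.31 in SCR at day 12 and 10.21 ± 0.95 at day 16, and in KD at 4.27 and 4.54, a change in the difference of -5.96 (SE 0.54, adjusted p 3.7e-10). Neural genes made up another 10 of the 582, and the neural list median went from 0.02 to -0.80.

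Red blood cell genes went the other way. Hbb-bh1 averaged 10.01 ± 0.90 in SCR at day 12 and 3.77 ± 0.16 at day 16, and 3.72 and 4.24 in KD, so that a difference of -6.30 at day 12 had become 0.47 (change 6.77, SE 0.61, adjusted p 3.7e-10). WT went from 11.28 ± 0.77 to 6.07 ± 1.70. Of 13 erythroid genes 6 changed in this direction, and the list median went from -1.02 to 0.28. In SCR the peak was earlier still, at day 8, with 13.59 ± 0.10 for Hbb-bh1, and no KD stage averaged above 4.24. The absorptive visceral endoderm genes kept their direction with a smaller size: 5 of 12 had a lower difference at day 16, Cubn among them (from 6.26 to 3.18; change -3.08, SE 0.45, adjusted p 8.1e-06), as it dropped from 10.89 to 9.75 in KD and rose from 4.63 to 6.57 in SCR. No member of the germline, cardiac sarcomere or naive lists except 1 sarcomere gene was called in this test.

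**Figure D4:**
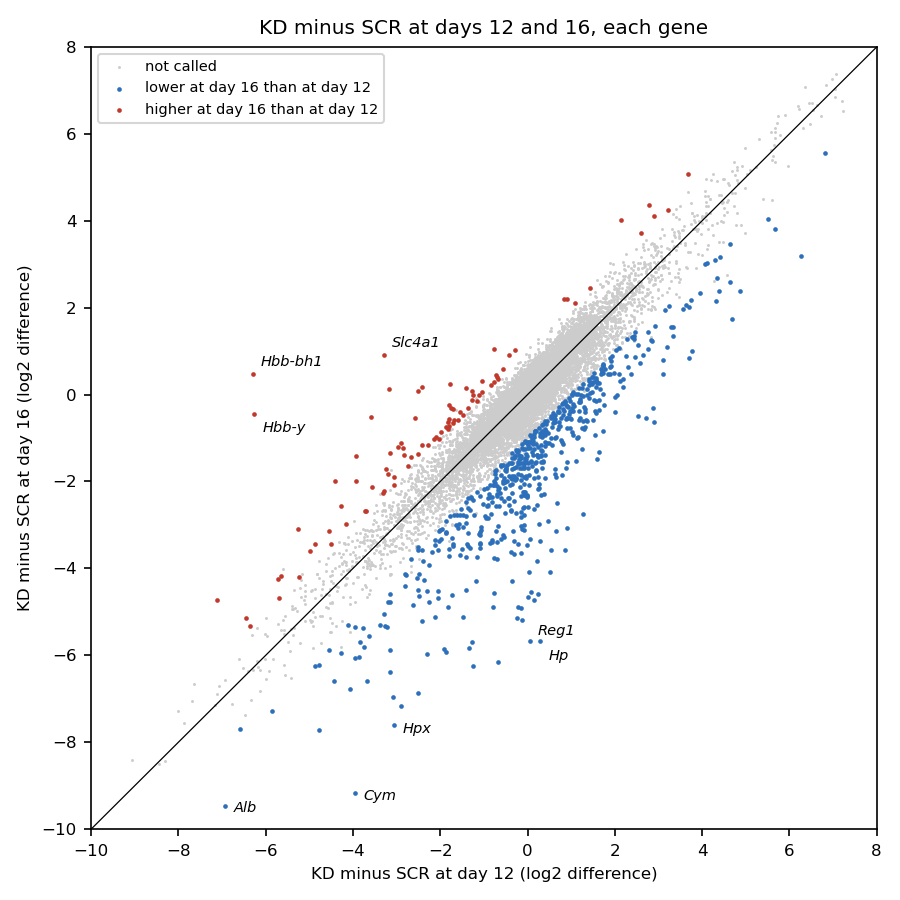
Difference between KD and SCR (log2) at day 12 (x axis) and day 16 (y axis) for each of the 18193 genes; the line marks equal values, and genes whose difference changed between the days are coloured. Most genes lie along the line; globin genes such as Hbb-bh1 leave it upward, and Hp, Reg1, Hpx, Cym and Alb leave it downward.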

How the data were processed

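The deposited values are log2 probe set signals, 1 column for each array of an Affymetrix mouse genome platform, and the columns were matched to arrays by their labels. The submitters' processing notes name Affymetrix Expression Console, Partek 6.6 and RMA without saying which step each did, and the values carry no detection calls. Of 45037 probe sets 34945 had 1 gene symbol, 932 had several and 9160 had none in the platform annotation. Symbols were updated through RefSeq (GRCm38.p6), where 204 probe sets found no entry. For each of the 18193 genes the probe set with the highest mean over the 45 arrays was used, and 9010 genes had more than 1.

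No further normalization was applied. Group means of all 15 groups (3 lines at 5 stages, 3 arrays each) were fitted to the 45 arrays in limma 3.58.1 (R 4.3.3), and p-values were adjusted by Benjamini-Hochberg over all genes. SE is limma's standard error, and a call needs an adjusted p under 0.05 and a change of at least 2-fold. On simulated data the fit was judged by adjusted p under 0.05 alone, without the 2-fold rule. It found 56% of genes changed 1.5-fold, 94% of those changed 2-fold and 100% of those changed 4-fold or 8-fold (50 genes each). False calls numbered 5. Only the planted genes differed in the simulation, which used normal noise. In the data 66.6% of all genes were called by adjusted p alone. The adjusted p depends on that share, so these figures do not carry over to the comparison of KD and SCR. Recovery under the 2-fold rule was not tested. The low number of arrays limits the precision.

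Gene lists, members and tests were chosen with earlier results of these data known. Single genes were named as list members, as Strip2, as the 15 largest rises and falls without overlap between arrays, as the 10 largest beyond both controls, as the 8 largest changes between days 12 and 16, or as the 8 largest called in opposite directions against SCR and WT. Clone, locus and predicted symbols were not named. Promoter windows came from RefSeq and 14452 genes on the arrays had one. Alternatives were other scalings, other choices of probe set, dim genes left out, fewer arrays in the fit, an intensity trend, the replicate number as a block and each array left out in turn.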

Additional observations from a re-analysis of the deposited data

Results flagged for a closer look

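The difference between KD and SCR was not the same at day 12 and day 16 for 16 genes given here, the largest each way by the test of the change itself in limma. The change was -5.96 for Hp (SE 0.54, adjusted p 3.7e-10), -5.72 for Reg1 (SE 0.66, adjusted p 7.2e-08), -5.47 for Saa3 (SE 0.41, adjusted p 4.7e-12), -5.22 for Cym (SE 0.51, adjusted p 2.4e-09) and -5.06 for Lcn2 (SE 0.38, adjusted p 3.9e-12). Hp and Saa3 encode acute phase proteins and Lcn2 a protein that binds bacterial iron carriers. Lgals4, a gut lectin, changed by -4.99 (SE 0.33), Cyp2f2 by -4.91 (SE 0.27) and Ctrb1 by -4.87 (SE 0.86, adjusted p 0.00016). Reg1 and Ctrb1 are pancreatic genes whose first SCR array was the lowest of its group.

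The changes in the other direction were those of red blood cell and platelet genes. They were 6.77 for Hbb-bh1 (SE 0.61), 5.82 for Hbb-y (SE 0.39), 3.28 for Hba-x (SE 0.35) and 2.59 for Hbb-b2 (SE 0.48, adjusted p 0.0003), all globins. The membrane transporters Slc4a1 and Slc14a1 changed by 4.20 (SE 0.56) and 3.06 (SE 0.36), Hemgn by 2.59 (SE 0.58, adjusted p 0.0028) and the platelet receptor Clec1b by 2.51 (SE 0.33, adjusted p 8.6e-07). Globin probe sets may take up RNA of related globin genes.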

How the results depend on the processing

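The calls numbered 4264 in the analysis reported. With dim genes left out (mean level under the median gene) they numbered 2547, 1252 of them falls, with 3609 rises and 3065 falls by adjusted p alone, 186 changes between days (32 up, 154 down) and 281 list members called in place of 470, since fewer genes were tested. With every probe set counted there were 7344 calls (3070 rises, 4274 falls; 12526 and 8888 by adjusted p alone) and 150 upward changes between days. Mbnl3 reversed, to -0.71 with the mean of its probe sets and to -1.96 with the probe set of widest spread; the cause was not tested. Leaving out each array in turn gave 4207 to 4350 calls, 1836 to 1944 rises, 2346 to 2444 falls, 6244 to 7115 and 4580 to 4755 by adjusted p alone, 575 to 737 changes between days (70 to 101 up, 505 to 636 down) and 464 to 479 list members. Of 499 named or listed genes called, 36 lost the call in at least 1 of these and 415 kept it under each alternative that gave them a value; dim genes have none where they were left out. Deviations of KD and SCR arrays with the same chip number correlated at 0.11, 0.19 and 0.06, and every KD array correlated best with its own number. Whether these numbers pair the arrays is not settled by such weak values, and the main fit used no pairing. The replicate block gave 4264 calls (1890 rises, 2374 falls) and 682 changes between days. The fit to the 9 day 16 arrays gave no day comparison. In the lists of BMP, G1, Notch and Wnt genes the single rise became 2 when certain arrays were left out. Of 554 named or listed genes not called, 55 had a further probe set that was called. Called genes had 4606 further probe sets, of which 2044 were called in the same direction, 2547 were not called and 15 were called in the opposite direction. With the mean of probe sets there were 3546 calls (1638 rises, 1908 falls). Under that choice 21 list medians moved by more than the spread between arrays, and 24 did not.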
